A study of Mus musculus with 6 samples.

Results

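The 7 mouse Schlafen genes Slfn1, Slfn2, Slfn3, Slfn4, Slfn5, Slfn8 and Slfn9 were examined in open chromatin of blood monocytes. They were taken by name, and every deposited peak that overlapped a gene body or the 10 kb on either side of it was assigned to the gene. They are 7 of the 21900 protein-coding genes of the gene table, 16831 of which had such a peak in at least 1 library. The assay was ATAC-seq, which marks exposed DNA by the insertions of the Tn5 transposase, on aliquots of 50000 cells. The DTR group held 3 libraries from mice of the genotype PF4cre-iDTR given diphtheria toxin, which the labels call thrombocytopenic. The WT group held 3 libraries from control mice of the genotype WT given the same toxin. In the PF4cre-iDTR model a Pf4 promoter, active in megakaryocytes, drives Cre, and Cre switches on a receptor that makes cells sensitive to the toxin. Pf4-driven Cre is known to act in some other blood cells too. WT mice are not labelled as carrying either transgene, so the loss of platelets and carriage of the transgenes cannot be told apart. The sources used here do not give age, sex, dose or the number of animals behind a library, so p-values measure only the spread between these libraries.

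Schlafen proteins share an N-terminal domain that binds and, in several members, cuts RNA, and transfer RNA is a known target. Short members (Slfn1, Slfn2), intermediate members (Slfn3, Slfn4) and long members with a helicase-like C-terminal part (Slfn5, Slfn8, Slfn9) are distinguished in the mouse. Many of the genes are induced by type I interferon, and in lymphocytes and myeloid cells the family is known for its part in quiescence, differentiation and defence against viruses. All 7 lie in 1 cluster on chromosome 11, in the order Slfn5, Slfn9, Slfn8, Slfn2, Slfn1, Slfn4 and Slfn3, and their windows joined into 4 stretches of 200.9 kb in all. Gene coordinates and promoter sequences are from RefSeq on GRCm38.p6. The build of the peak lists is not given in the sources used here. A region with a peak in all 6 libraries lay in 55.2% of the 21263 RefSeq promoters, against 4.86% to 5.84% after moving the promoters by 5000 or 20000 bp in either direction.

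The 250 bases before the start site are shown for the promoters that held a core of the interferon-stimulated response element, and for Slfn4, whose start region had the largest difference in width among the starts. Each is written in the direction of transcription and ends at the base before the start site. Capitals mark GAAANNGAA or its reverse complement in Slfn5, Slfn9 and Slfn8, and the AP-1 motif TGANTCA in Slfn4. The stretches are chr11:82951852-82952101 (plus strand) for Slfn5, chr11:82991831-82992080 (minus strand) for Slfn9, chr11:83020811-83021060 (minus strand) for Slfn8 and chr11:83174936-83175185 (plus strand) for Slfn4.
Slfn5: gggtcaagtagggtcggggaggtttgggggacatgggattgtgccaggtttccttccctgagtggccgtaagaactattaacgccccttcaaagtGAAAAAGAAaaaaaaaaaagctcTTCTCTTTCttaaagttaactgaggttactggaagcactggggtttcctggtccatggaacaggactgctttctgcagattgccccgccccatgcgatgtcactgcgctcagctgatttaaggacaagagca
Slfn9: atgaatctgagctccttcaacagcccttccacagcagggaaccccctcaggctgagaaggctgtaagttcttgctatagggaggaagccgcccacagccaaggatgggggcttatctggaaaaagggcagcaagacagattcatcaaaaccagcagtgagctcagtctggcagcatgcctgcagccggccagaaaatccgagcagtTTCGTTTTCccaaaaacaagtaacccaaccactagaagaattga
Slfn8: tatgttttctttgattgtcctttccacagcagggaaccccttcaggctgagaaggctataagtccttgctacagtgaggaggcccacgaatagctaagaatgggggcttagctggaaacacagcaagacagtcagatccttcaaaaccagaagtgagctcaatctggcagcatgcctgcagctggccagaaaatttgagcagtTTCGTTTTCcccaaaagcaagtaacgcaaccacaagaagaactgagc
Slfn4: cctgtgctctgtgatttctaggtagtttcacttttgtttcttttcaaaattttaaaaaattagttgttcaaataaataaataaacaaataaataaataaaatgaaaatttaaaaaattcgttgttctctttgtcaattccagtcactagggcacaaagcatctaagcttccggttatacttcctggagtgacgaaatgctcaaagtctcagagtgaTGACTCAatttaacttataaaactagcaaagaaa
Slfn5 held GAAANNGAA at -155 to -147 and, on the other strand, at -132 to -124 from the start site. Slfn9 held it on the other strand at -44 to -36, and Slfn8 at -47 to -39, in the same 9 letters. RefSeq gives Slfn8 another start site, at chr11:83020722, from which the same stretch lies at -135 to -127. The promoters of Slfn9 and Slfn8 were alike over 80.5% of their alignment (248 identical bases in 308 columns), against at most 49.4% for any other pair of members. How reads that map to both were treated is not given in the sources used here, so peaks in near-identical stretches of Slfn9 and Slfn8 are uncertain. GAAANNGAA was present, on either strand, in 8.15% of the 21263 promoters of 300 bp. TGANTCA was present at -34 to -28 in Slfn4 and in 6.99% of all promoters. The C/EBP motif TTGCNNAA was found in Slfn2 at -168 to -161 and in Slfn3 at -194 to -187, and in 10.2% of all promoters. The GAS motif TTCNNNGAA (7.69% of all promoters) and the PU.1 motif GAGGAAGT (3.13%) were not found in these windows of any member, and the Slfn1 window held none of the 5 motifs.

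The start sites of all 7 genes, with both of Slfn8, lay in open chromatin in all 6 libraries. Over the protein-coding genes with a promoter in the table, 56.9% (9945 of 17492) had a peak over the promoter in all 6. The labelled cell type was checked in the same way. All 4 monocyte markers with a promoter in the table (Ccr2, Ly6c2, Cx3cr1 and Itgam) had such a peak. None of 5 neutrophil, 2 B cell and 3 erythroid markers had one, and of 4 markers each it was 1 for T and NK cells (Klrb1c), 1 for megakaryocytes and platelets (Pf4) and 2 for dendritic cells (Siglech and Flt3).

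Peaks covered more DNA around the Schlafen genes in DTR monocytes than in WT monocytes, while their number and their fold over background did not separate the groups. Peaks were called by the authors in each library alone, and without read counts in the lists the sequencing depth is unknown. Over all windows the DTR libraries had 22, 21 and 20 peaks, against 21, 19 and 19 in the WT libraries. The means were 21 ± 1 in DTR and 19.7 ± 1.15 in WT (SD, n = 3 each; exact two-sided permutation p = 0.3). The peaks covered 19077, 19574 and 19272 bp in DTR, against 17528, 15474 and 16580 bp in WT. The groups did not overlap in covered length, and every DTR library was above every WT library. The mean was 19308 ± 250.4 bp in DTR and 16527 ± 1028 bp in WT, 16.8% more in DTR (SD, n = 3 each; exact two-sided permutation p = 0.1, the smallest that 3 against 3 libraries can give).

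The same direction was present across the genome. All peaks together took up 49.4 ± 1.14 Mb of a DTR library and 46.0 ± 1.95 Mb of a WT library, 7.53% more in DTR (SD, n = 3 each; exact permutation p = 0.1), from 82392 ± 1418 peaks in DTR and 78835 ± 1428 in WT (exact permutation p = 0.1). Per Mb of a library's own peaks, the Schlafen windows held 381, 407 and 385 bp in DTR, against 368, 353 and 357 bp in WT. These shares did not overlap either, and the mean was 8.76% higher in DTR (exact permutation p = 0.1). Scaled to each library's genome total in this way, the difference in covered length was 1502 bp instead of 2780 bp and that in peak number 0.421 instead of 1.33 (exact permutation p = 0.7). The part of depth in the genome-wide difference was not tested.

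The median width of a peak in the windows was 650.5, 713 and 693 bp in DTR and 573, 574 and 724 bp in WT, with overlap (exact permutation p = 0.4). The median fold of a peak over the caller's background, as the authors deposited it, was 4.96, 4.93 and 5.77 in DTR and 5.22, 5.44 and 5.60 in WT (exact permutation p = 0.6). The groups overlapped in both measures.

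**Figure D1:**
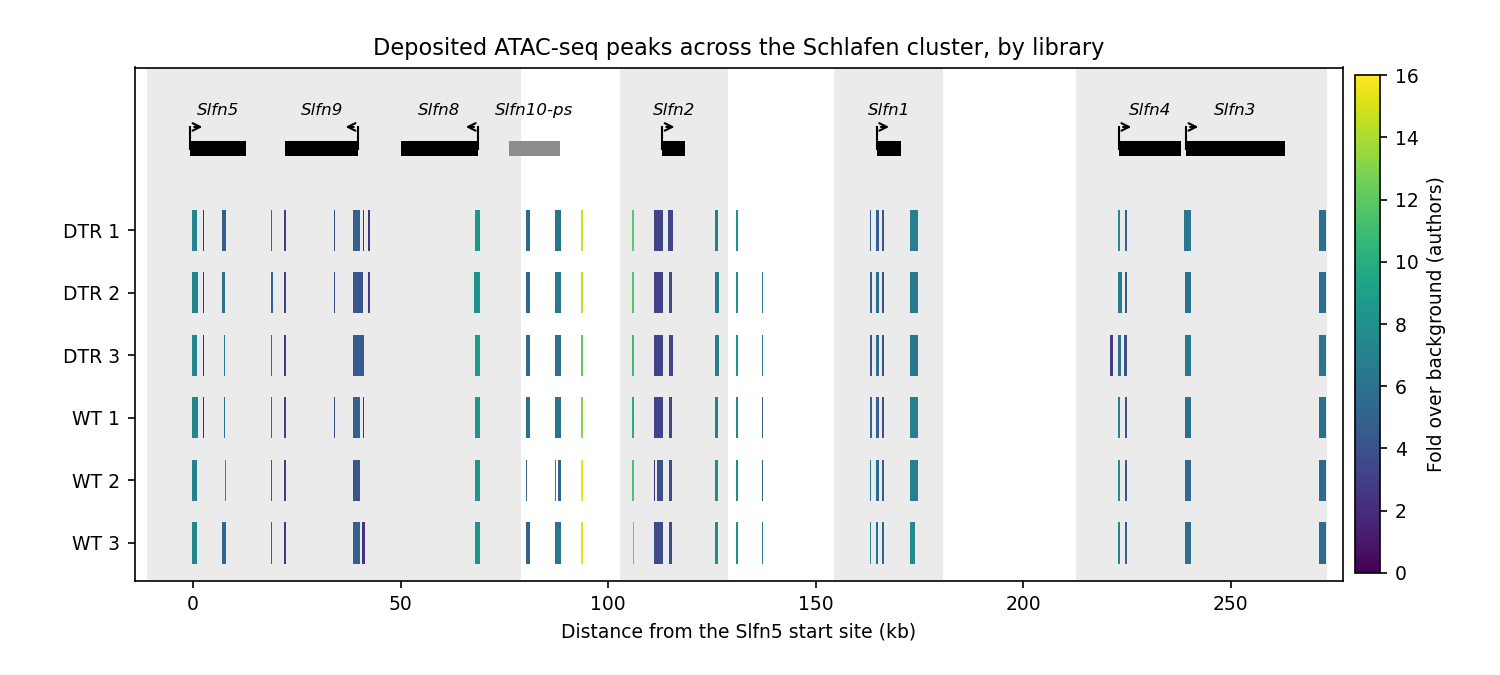
Peaks of each library along the Schlafen cluster, by distance in kb from the Slfn5 start site. Each bar is 1 deposited peak, coloured by its fold over background, with the 10 kb windows shaded and arrows at the 5′ ends of the genes. The narrowest peaks are drawn wider than they are, at a common minimum width, so their widths cannot be read from the figure. DTR libraries (above) and WT libraries (below) share most peaks, including 1 at each start site, and the brightest peak, with a fold of 12.03 to 15.4, lies outside the windows between Slfn10-ps and Slfn2.

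The peaks of the 6 libraries merged into 22 regions, 18 of which (81.8%) had a peak in every library, against 74.1% of all 92757 merged regions. No region had peaks in all DTR and in no WT libraries, nor the reverse, where 0.820% and 0.0992% of all regions were DTR-only and WT-only. The 4 regions with a missing library spanned at most 669 bp. In the Slfn5 body, 2.4 kb from the start, a peak of 157 to 207 bp with a fold of 2.08, 2.06 and 1.92 in DTR had a counterpart only in WT replicate 1, with a fold of 1.86. Upstream of Slfn9, 2.69 kb from its start, a region was called only in DTR replicates 1 and 2, with folds of 2.50 and 3.03. Leaving out WT replicate 1 made the Slfn5 region DTR-only, and leaving out DTR replicate 3 did so for the region upstream of Slfn9. A region in the Slfn9 body was called in DTR replicates 1 and 2 (folds of 3.50 and 3.51) and WT replicate 1 (3.74), and a region 1.69 kb upstream of Slfn4 in DTR replicate 3 alone (2.81).

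Among the short members, Slfn2 is needed to keep T cells and monocytes quiescent, as mice with a mutant allele have shown. Its window had 4 regions, all present in every library, and 4 peaks in each DTR library against 4, 5 and 4 in WT. They covered 4454, 4113 and 4497 bp in DTR and 4133, 3415 and 3905 bp in WT, which overlapped. This was the longest coverage of any member window in each library. The region 7.04 kb upstream of the start (chr11:83057867-83058286) had the highest fold in the windows, at 11.9, 11.7 and 11.0 in DTR and 9.75, 11.5 and 12.4 in WT. It ranked between the 92.7th and the 98.5th percentile of a library's peaks, and its centred log2 fold differed by 0.02 (limma, SE 0.08, 95% interval -0.17 to 0.21, adjusted p = 0.957). Here the log2 fold of a region is centred on the library's median over the 68712 regions with a peak in all 6 libraries, and p-values are adjusted over all of these.

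At the Slfn2 start itself (chr11:83063231-83065432) the peak was broad and low. Its fold was 3.25, 3.18 and 3.25 in DTR and 3.29, 3.76 and 3.65 in WT, lower in every DTR library than in any WT library. It spanned 2185, 2202 and 2130 bp in DTR and 2125, 1641 and 2106 bp in WT, again with no overlap, wider in DTR. Neither difference passed the test over all regions (fold: log2 difference -0.17, SE 0.07, adjusted p = 0.423; width: 0.16, SE 0.11, adjusted p = 0.752). WT replicate 2 had a pair of peaks there where the other libraries had 1. The Slfn2 start ranked at the 5.13 to 11.0 percentile of fold and the 84.4 to 97.0 percentile of width among each library's promoter peaks. Beyond the gene, 13.1 kb from the start (chr11:83077776-83078715), the fold was 6.82, 6.81 and 6.65 in DTR and 7.12, 7.70 and 7.74 in WT. Widths there were 881, 885 and 936 bp in DTR and 852, 772 and 787 bp in WT. Both measures separated the groups in opposite directions, lower and wider in DTR (fold: -0.19, SE 0.05, adjusted p = 0.316; width: 0.17, SE 0.05, adjusted p = 0.582). How far the width of a peak enters its fold was not tested, here or at the start, so fold and width may not be independent measures. In the gene body, 2.09 kb from the start, the width was 1077, 713 and 1097 bp in DTR and 751, 724 and 724 bp in WT. DTR replicate 2 was below all WT libraries there, and without it this width difference was 0.57 on the log2 scale (limma, adjusted p = 0.0261), against 0.37 (adjusted p = 0.681) with it. Leaving out any other single library gave a limma adjusted p of 0.622 to 0.888, so the call rested on removing the library that went against the difference.

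Slfn1, which slows thymocyte growth when overexpressed in mice, had 4 regions and exactly 4 peaks in every library. They covered 3487, 3388 and 3381 bp in DTR and 3393, 3164 and 2360 bp in WT, where replicate 3 was low. The largest difference in fold of any region in the windows lay 1.39 kb upstream of its start (chr11:83115249-83115614). The fold there was 5.0, 4.77 and 4.20 in DTR and 5.22, 6.38 and 7.19 in WT, with no overlap. The centred log2 difference was -0.45 (limma, SE 0.12, 95% interval -0.73 to -0.17, adjusted p = 0.288), and it was not called at the threshold of 0.05. The same stretch was covered over 316, 366 and 335 bp in DTR and 338, 201 and 191 bp in WT, so WT replicates 2 and 3 had the narrowest peaks and the highest folds. The part of peak width in the fold was not tested. The Slfn1 start (chr11:83116576-83117338), next to it, had a fold of 4.82, 5.65 and 5.78 in DTR and 4.91, 5.39 and 5.73 in WT, a difference of -0.02 (SE 0.09, adjusted p = 0.964). The other Slfn1 regions had lower mean folds in DTR. In the body, 1.45 kb from the start, the fold was 4.17, 3.89 and 3.99 in DTR and 3.98, 4.60 and 5.11 in WT (-0.21, SE 0.09, adjusted p = 0.464). At 8.91 kb (chr11:83124739-83126714), past the end of the gene, it was 6.71, 6.52 and 6.37 in DTR and 6.77, 6.74 and 7.59 in WT, with no overlap (-0.14, SE 0.06, adjusted p = 0.462).

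Of the intermediate members, Slfn4 is known to be high in immature and activated myeloid cells and to fall as mouse macrophages differentiate. Its peaks covered 2544, 2872 and 3529 bp in DTR, against 2461, 2384 and 2317 bp in WT, with no overlap. These lengths include the Slfn3 start region, with 1569 bp in DTR replicate 1 and 1444 bp in WT replicate 1. In the regions not shared with Slfn3 the groups overlapped, with 437 and 538 bp in DTR replicate 1 and 444 and 573 bp in WT replicate 1. The length of DTR replicate 3 includes 669 bp called in that library alone. At the Slfn4 start (chr11:83175055-83175980) the fold was 7.53, 6.68 and 5.75 in DTR and 6.86, 7.77 and 7.23 in WT. Its width was 437, 910 and 715 bp in DTR and 444, 350 and 357 bp in WT. DTR replicates 2 and 3 were the widest, while DTR replicate 1 lay below WT replicate 1 (log2 difference 0.79, SE 0.29, 95% interval 0.05 to 1.52, adjusted p = 0.664). The peak reached 115 to 131 bp upstream of the start in all libraries, and 218 to 794 bp downstream, so the libraries differed at its downstream side.

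Slfn3, linked to regulatory T cells in mice and to gut epithelial differentiation in rodents, was the most even member. It had 2 peaks in each library, covering 3179, 3105 and 3074 bp in DTR and 3054, 3156 and 3095 bp in WT (3119 ± 53.9 in DTR, 3102 ± 51.3 in WT). Its start (chr11:83190970-83192557), which lies in the Slfn4 window too, had a fold of 6.28, 5.94 and 6.41 in DTR and 5.98, 5.44 and 5.77 in WT (0.08, SE 0.07, adjusted p = 0.668). The other region, 32.9 kb from the start and near the far edge of the window, had a fold of 6.03, 5.73 and 6.08 in DTR and 5.85, 5.55 and 5.60 in WT (0.04, SE 0.06, adjusted p = 0.845). Its width stayed between 1600 and 1625 bp in DTR and between 1607 and 1611 bp in WT.

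Of the long members, Slfn8 had the highest fold of the start regions. At its start (chr11:83019893-83021328) the fold was 8.32, 8.16 and 8.59 in DTR and 8.29, 8.27 and 8.21 in WT (-0.02, SE 0.05, adjusted p = 0.930). The width was 1361, 1387 and 1360 bp in DTR and 1339, 1262 and 1310 bp in WT, wider in each DTR library (0.07, SE 0.03, adjusted p = 0.671). The whole Slfn8 window was covered over 2181, 2812 and 2404 bp in DTR and 1872, 1435 and 2144 bp in WT. That is 2466 ± 320.0 bp in DTR and 1817 ± 357.7 bp in WT (SD, n = 3 each), with no overlap. It is made up of the Slfn8 start and 2 regions that also lie in the Slfn9 window.

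Slfn9 shares its start region with the Slfn8 window. The region (chr11:82990697-82993580) was broad, with 1820, 2456 and 2431 bp in DTR and 1918, 1594 and 2247 bp in WT. Its fold was 4.61, 4.31 and 4.61 in DTR and 4.41, 4.36 and 4.16 in WT (0.03, SE 0.07, adjusted p = 0.885). The single peak over the start extended 467 to 1338 bp upstream and 1090 to 1133 bp downstream, so its upstream side varied more between libraries. A second peak further upstream was called apart in DTR replicate 1 and WT replicates 1 and 3. DTR replicates 2 and 3 had 1 long peak there, and the widths above count all peaks of the region. The Slfn9 window was covered over 3236, 3860 and 3180 bp in DTR and 2887, 2277 and 2957 bp in WT, with no overlap. In both the Slfn9 and the Slfn8 window this separation rested on 1 region of 428 bp in DTR replicate 1, called in no WT library.

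Slfn5, whose human counterpart acts in the nucleus on interferon-induced transcription, had 5 peaks in each DTR library and 5, 4 and 4 in WT. They covered 3117, 3077 and 2474 bp in DTR and 2432, 2048 and 2830 bp in WT, which overlapped. Its start (chr11:82951926-82953168) had a fold of 7.24, 7.15 and 7.22 in DTR and 7.20, 6.88 and 7.46 in WT (-0.03, SE 0.05, adjusted p = 0.873). A region 7.41 kb into the gene (chr11:82959005-82960022) varied most in width, over 1008, 885 and 354 bp in DTR and 313, 165 and 965 bp in WT. Broad and narrow calls occurred there in both groups (log2 difference 0.89, SE 0.77, adjusted p = 0.777). Between Slfn5 and Slfn9, 18.9 kb from the Slfn5 start (chr11:82970859-82971237), the fold was 5.80, 4.93 and 5.95 in DTR and 5.58, 4.59 and 5.15 in WT. This was the largest positive difference in the windows (0.09, SE 0.11, adjusted p = 0.783). At the 3' end of Slfn9 (chr11:82973979-82974409) a low peak had a fold of 2.84, 3.04 and 2.74 in DTR and 2.92, 2.85 and 2.47 in WT (0.03, SE 0.08, adjusted p = 0.900).

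**Figure D2:**
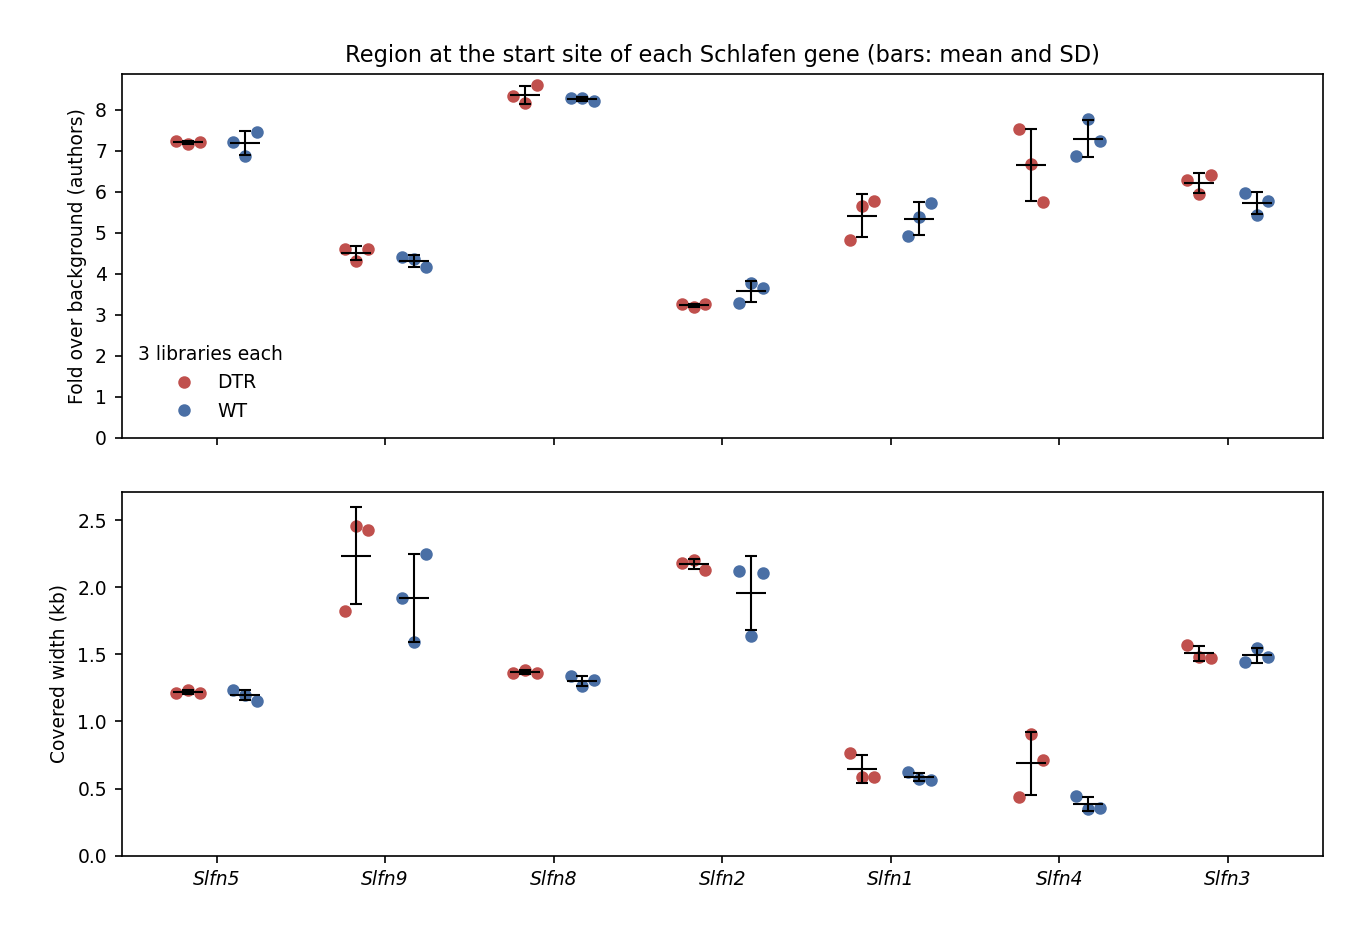
Fold over background (upper panel, authors' values) and covered width in kb (lower panel) of the region at each start site; points are libraries, with DTR left of WT, and bars are the mean and SD of 3 libraries. Slfn8 has the highest folds (8.16 to 8.59) and Slfn2 the lowest (3.18 to 3.76), and the Slfn2 and Slfn8 starts are wider in every DTR library than in any WT library.

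The order of the starts by mean fold over all libraries was Slfn8, Slfn5, Slfn4, Slfn3, Slfn1, Slfn9 and Slfn2. Slfn8 stood above Slfn5 in every library, and Slfn9 above Slfn2 in every library. Slfn5 and Slfn4, Slfn4 and Slfn3, and Slfn3 and Slfn1 overlapped. Slfn1 and Slfn9 did not overlap in the mean over the region, but for the single peak over the start Slfn9 had a fold of 4.92 and Slfn1 one of 4.82 in DTR replicate 1. Height and width did not go together among the starts, since the lowest starts, Slfn2 and Slfn9, were also the widest.

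Over the genes, 3 of 7 members (Slfn9, Slfn8 and Slfn4) had a longer covered length in every DTR library than in any WT library, against 19.3% of 16831 genes, and 0 of 7 the reverse, against 0.850%. With limma on log2(covered bp + 100), 0 of 7 members passed an adjusted p of 0.05, as did 0.0356% of 16832 genes (6 genes), and the same 3 members had an unadjusted p under 0.05, against 12.6% of genes. The log2 difference was 0.43 for Slfn8 (SE 0.16, adjusted p = 0.366), 0.33 for Slfn9 (SE 0.12, adjusted p = 0.363) and 0.30 for Slfn4 (SE 0.12, adjusted p = 0.382). The values of Slfn8 and Slfn9 depended on the window: in gene bodies alone they were 0.11 for Slfn8 and 0.10 for Slfn9, and with at least 50% of a peak required in the window that of Slfn8 was 0.07 (limma, adjusted p = 0.892). It was 0.24 for Slfn5, 0.21 for Slfn1, 0.19 for Slfn2 and 0.01 for Slfn3, with adjusted p-values of 0.406 to 0.933. The median over the members was 0.24, against 0.07 over all genes tested, and all 7 values were above 0, as were 82.5% of all genes' values. Neighbouring windows overlap, with 5 of the 22 regions counted for more than 1 member, so the members are not independent. The region upstream of Slfn9 that was called only in DTR replicates 1 and 2 counted for both Slfn9 and Slfn8. Without its 428 bp, DTR replicate 1 would lie below WT replicates 1 and 3 in both windows. Without the Slfn3 start region, DTR replicate 1 would lie below WT replicate 1 in the Slfn4 window.

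**Figure D3:**
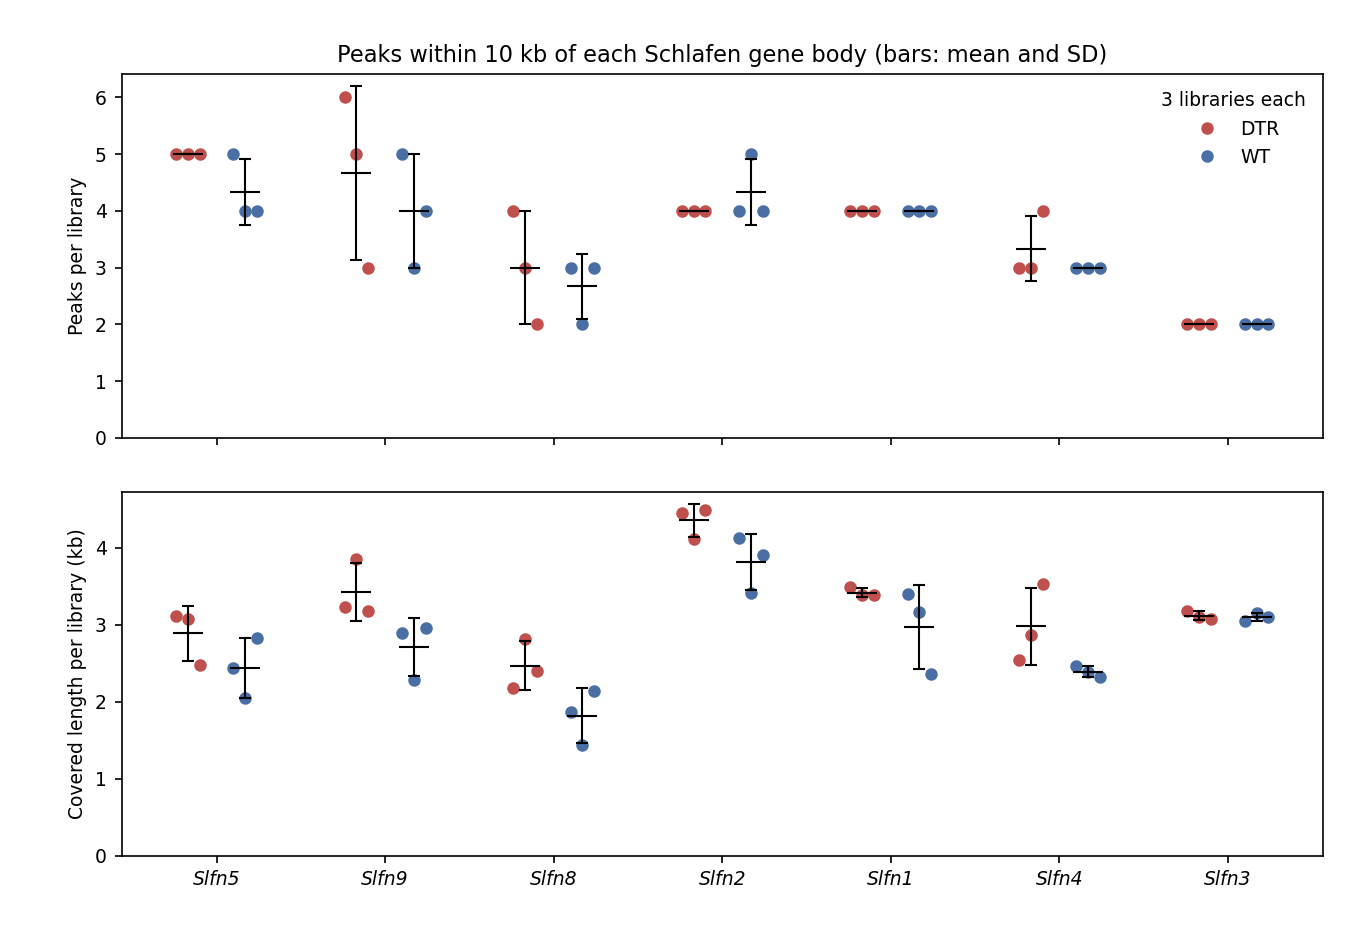
Number of peaks (upper panel) and covered length in kb (lower panel) within 10 kb of each Schlafen gene body, in genome order; points are libraries, with DTR left of WT, and bars are the mean and SD of 3 libraries. Covered length is higher in every DTR library than in any WT library for Slfn9, Slfn8 and Slfn4, while Slfn3 is level at 3054 to 3179 bp. Regions shared by neighbouring windows are counted in each of them.

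In peak number, 0 of 7 members had every DTR library above every WT library, against 2.99% of genes, and 0 of 7 below, against 0.345%. In the highest fold of any peak of a gene, limma called 0 of 7 members and 0% of 16248 genes at an adjusted p of 0.05. An unadjusted p under 0.05 was found for 1 member, Slfn1, and for 10.9% of genes. The Slfn1 value came from the region at 8.91 kb given above. The median difference in centred log2 highest fold was -0.02 over the members and -0.03 over all genes tested.

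Over the 18 regions with a peak in every library, 0 were called for fold, as were 0% of the 68712 such regions in the genome, and 3 had an unadjusted p under 0.05, against 11.2%. These 3 were the Slfn1 region at 1.39 kb upstream, the Slfn2 start and the Slfn2 region at 13.1 kb. Every DTR library was below every WT library in 4 of 18 regions, against 11.6% of all, and above in 0 of 18, against 6.58%. For width, 0 of 18 were called, against 0.230% of all, and 3 had an unadjusted p under 0.05, against 7.42%. The widths of 5 regions were larger in every DTR library (13.0% of all regions) and of 0 regions smaller (1.87%). The fitted width difference was above 0 in all 18 regions, with a median of 0.13, and in 71.4% of all regions, with a median of 0.04. In 5 of the 18 it fell below 0 when a single library was left out, to between -0.10 and -0.00084. In the region 7.04 kb upstream of Slfn2 the mean width was 319.3 bp in DTR and 323.7 bp in WT. The fitted fold difference was below 0 in 12 of 18 regions, with a median of -0.03, and in 57.6% of all regions, with a median of -0.02.

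**Figure D4:**
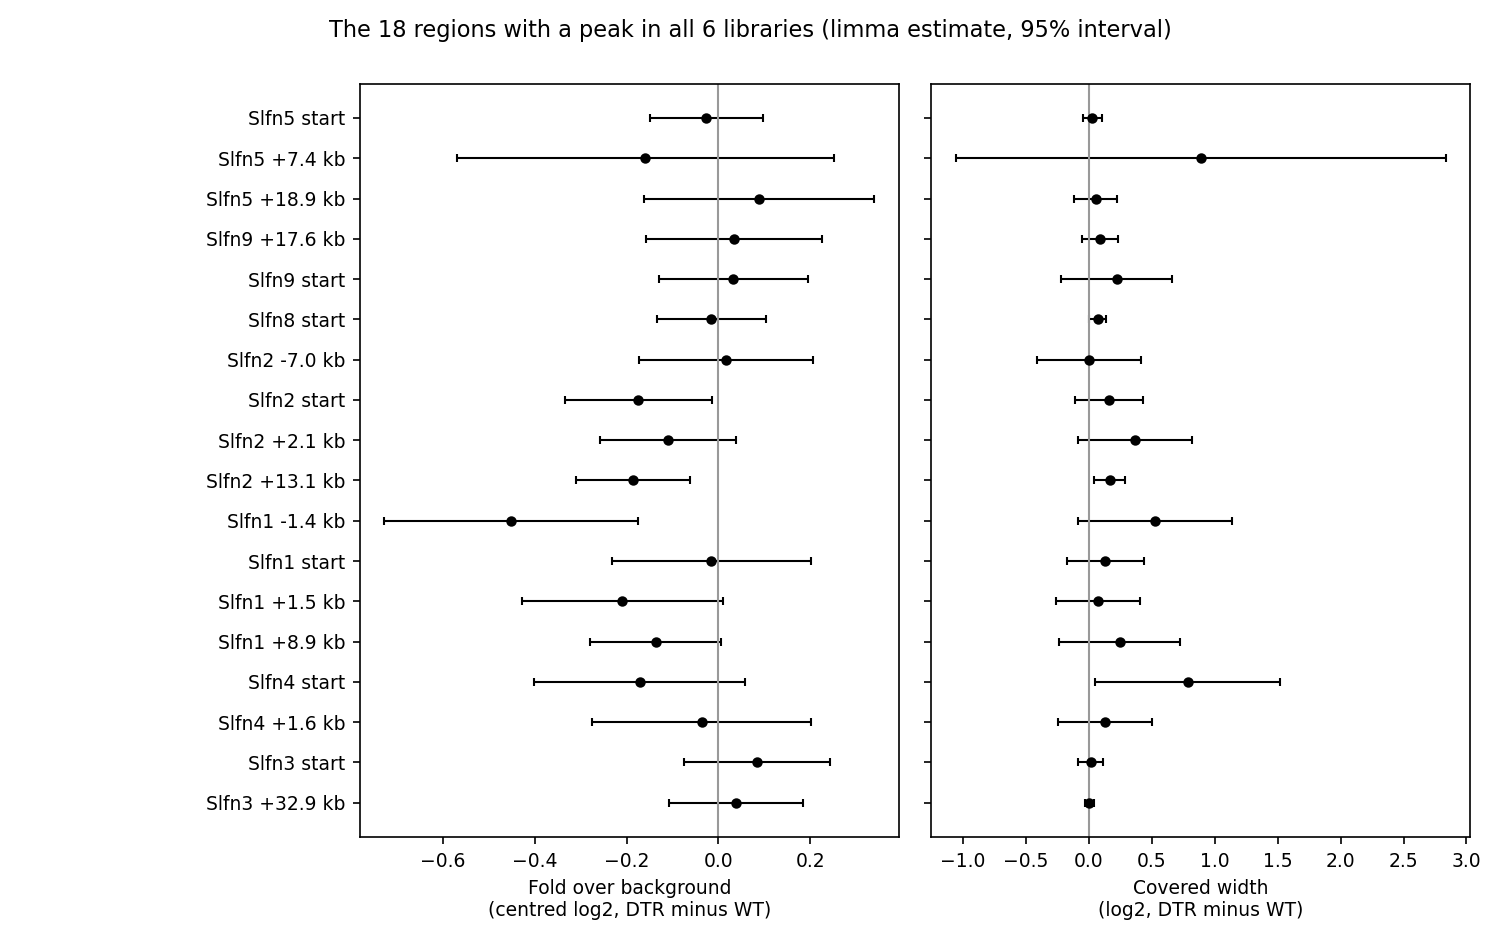
DTR minus WT difference of each of the 18 regions with a peak in all 6 libraries, in centred log2 fold over background (left) and log2 covered width (right), named by the nearest start and the distance from it; points are limma estimates and bars their 95% intervals. Width estimates lie at or above 0, most with intervals across 0, and the region 1.4 kb upstream of Slfn1 has the lowest fold difference, -0.45.

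Of the relatives of the 7 genes, Slfn14, a ribosome-associated ribonuclease gene whose human counterpart is mutated in an inherited thrombocytopenia, lies beyond Slfn3 on the same chromosome. It had no peak over its promoter in any library, although its window held 3, 3 and 4 peaks in DTR and 3, 3 and 3 in WT. They covered 2767, 2639 and 2881 bp in DTR and 2817, 2765 and 2732 bp in WT (limma log2 difference -0.01, adjusted p = 0.967). The pseudogene Slfn10-ps, between Slfn8 and Slfn2, was covered over 4222, 4257 and 4326 bp in DTR and 4347, 2852 and 4131 bp in WT (0.20, adjusted p = 0.602). Its window held the strongest peak of the cluster (chr11:83045555-83046087), with a fold of 14.7, 14.4 and 12.03 in DTR and 13.2, 15.4 and 15.2 in WT. Slfnl1, a more distant relative on chromosome 4, had 1 peak in each library, over 550, 455 and 556 bp in DTR and 530, 585 and 471 bp in WT.

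Other genes of the interferon response were fitted in the same way. Of 35 listed genes, 32 were in the covered-length fit, where limma called 0, 10 had an unadjusted p under 0.05 (12.6% of all genes), and the median log2 difference was 0.10, against 0.07 over all genes. Covered length was higher in every DTR library for 12 of the 32, against 19.3% of all genes, and lower for 0. Oas1a, a sensor of double-stranded RNA, had 2503, 3648 and 2642 bp in DTR and 1427, 1660 and 1379 bp in WT (log2 difference 0.92, SE 0.15, adjusted p = 0.149). Trim30a had 3718, 3568 and 3837 bp in DTR and 3334, 3108 and 3175 bp in WT (0.20, SE 0.05, adjusted p = 0.207). In the highest fold, 0 of 32 were called, 5 had an unadjusted p under 0.05 (10.9% of all genes), and the median difference was -0.06, against -0.03 over all genes. The smallest p-values were those of the antiviral genes Rsad2 (-0.25, SE 0.08, adjusted p = 0.381), Oas3 (-0.19, SE 0.07, adjusted p = 0.440) and Cmpk2 (-0.11, SE 0.04, adjusted p = 0.448), all with lower estimates in DTR.

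The pattern of covered length over the 6 libraries was compared between the Schlafen windows and 14050 other genes, by the distance between centred log2 values. The most alike were Peli2 (distance 0.0325), Tbc1d8 (0.0418), Ccnl1 (0.0579), Aff3 (0.0609) and Nrg1 (0.0644). Peli2 was covered over 7575, 7789 and 7571 bp in DTR and 7074, 6223 and 6622 bp in WT, with the lowest value in WT replicate 2, as in the Schlafen windows and in the genome total.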

How the data were processed

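ATAC-seq libraries of mouse blood monocytes (3 DTR, 3 WT, grouped and numbered by the sample titles) were deposited by the authors as 1 list of broad peaks per library. The tools were Bowtie2 (2.4.4), Bowtie, fastp and MACS2, per the submitters' processing notes; the sources used here give no parameters, build or Tn5 offset shift. The deposited lists give a score, a fold over background (a ratio), and −log10 p- and q-values. They hold no counts, so depth is unknown. The series title speaks of histone modifications; sample titles and protocols describe ATAC-seq.

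The members and lists were chosen with earlier results of these data known. Named were all members and relatives, the 3 interferon genes with the smallest p in each fit (1 of which is not reported here), and of the regions the starts, the 3 highest folds and the 5 largest differences in each direction; other regions were named after their values were seen. Overlapping or touching peaks were merged over libraries; a region's fold is the width-weighted mean, its log2 centred on the library's median. Differences were fitted with limma 3.58.1 (trend, R 4.3.3), Benjamini-Hochberg adjusted over all regions or genes, after a run on simulated data. In simulated regions limma recovered 82 of 100 seeded fold changes of log2 size 1 and 49 of 100 of size 0.5. For width it recovered 50 of 100 and 22 of 100. Whether changes of such sizes were missed in these libraries was not tested. Single values were tested by exact two-sided permutation. Covered length used a pseudocount of 100 bp. Genes came from a GRCm38.p6 RefSeq table; all 7 members matched by symbol, in the promoter table too. Of the interferon list Mx1 and Mx2 did not match. Alternatives changed window, q threshold, list length, merging, centring, pseudocount, libraries and replicate block.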

Additional observations from a re-analysis of the deposited data

How the results depend on the processing

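Under 19 other settings 413 values were recomputed: 392 neither reversed in sign nor crossed a threshold, 16 reversed and 5 moved. Differences that went to or from 0 count among the 392, such as Slfn9 peaks, from 0.667 to 0 with lists of equal length. Values with a permutation p could not cross 0.05 under any setting, since the smallest such p is 0.1. The covered-length difference of the Schlafen windows stayed positive throughout, at 1269 bp in gene bodies alone, 4380 bp with 25 kb windows, 2567 bp with lists of equal length, 2877 bp with −log10 q of at least 5, 1502 bp scaled to the genome, and 2254 to 3281 bp leaving out each library. Leaving out each library gave 0.833 to 2 for the difference in peaks, 36.5 to 112 bp for that in median width and -0.0654 to 0.00716 for the median centred log2 fold. The last value reversed to 0.000828 at −log10 q of at least 5, 0.00716 without DTR replicate 1 and 0.00503 when not centred. Regions called for width went from 0 to 1 without DTR replicate 2. DTR-only regions went from 0 to 1 without DTR replicate 3, without WT replicate 1, and where 2 of 3 libraries suffice. Members with non-overlapping peak numbers went from 0 to 1 without WT replicate 1. The shares of all regions and genes under these settings are not given here, so these counts cannot be set against the genome. The difference in highest fold reversed for Slfn9 (-0.0529 in gene bodies, -0.0971 with 25 kb), Slfn2 (-0.150 and -0.123 there, -0.00410 without DTR replicate 1, -0.0750 without WT replicate 1), Slfn3 (-0.207 with 25 kb) and Slfn8 (0.0103 without DTR replicate 2, 0.0171 not centred, 0.00908 with quantile normalization). Over all left-out libraries it ranged from -0.0750 to 0.0832 for Slfn2 and from -0.0455 to 0.0103 for Slfn8. Slfn8 peaks reversed to -0.167 without DTR replicate 1, and Slfn3 covered length to -0.00539 without DTR replicate 1 and -0.00283 without WT replicate 1, against 0.0201 without WT replicate 2. The cause was not tested. In the check for pairing, the correlation was 0.00481, 0.0709 and -0.0310 for same-numbered libraries. For differently numbered libraries it was between -0.0895 and 0.0872, so the numbers were not taken as pairs. These values do not measure how alike the libraries were in their peaks. With a replicate block the differences were 1.33 peaks and 2780 bp (sign-flip permutation p = 0.25, the smallest possible), and the block called 0 members. Without read counts, weak peaks near the calling threshold cannot be told from missing ones.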
